A study of Mus musculus with 12 samples.

Results

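Interstitial macrophage identity genes are described here as 9 genes, *Csf1r*, *Maf*, *Apoe*, *Tmem119*, *Gdf3*, *Itga9*, *Ms4a7*, *Lyve1* and *Folr2*, picked by symbol out of the 14648 genes counted. All 9 passed the filter on low counts, as every gene of the table did. The genes were counted by RNA-Seq in alveolar macrophages (AMs), CD11c+ interstitial macrophages (CD11c+ IMs) and CD11c- interstitial macrophages (CD11c- IMs) that were sorted from lungs of mice bearing B16 tumors, which grow from a mouse melanoma line. Each population was taken from WT mice and from mice labelled *Il9r*-/-, which are meant to lack the receptor of the cytokine IL-9, all on the C57BL/6 strain, with 2 libraries per group and 12 libraries in all. The cells were gated as CD64+ MerTK+ and parted by Siglec-F and CD11c. Neither the ages nor the number of mice behind a library is given in the labels, so the p-values measure only the spread between libraries, which may be partly technical.

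AMs live in the airspace and depend on GM-CSF and PPARγ, whereas IMs live in the lung tissue and draw on blood monocytes and on CSF-1. The 9 genes cover the receptor for CSF-1 and IL-34 (*Csf1r*), a transcription factor of mature tissue macrophages (*Maf*), a lipid carrier (*Apoe*), a membrane protein best known from microglia (*Tmem119*), a secreted protein of the TGF-β family (*Gdf3*), an integrin chain (*Itga9*), a four-span membrane protein (*Ms4a7*), a hyaluronan receptor (*Lyve1*) and a folate receptor (*Folr2*). *Lyve1* and *Folr2* are used in several tissues to mark resident macrophages near blood vessels, and *Lyve1* is also a marker of lymphatic endothelium.

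RefSeq promoters (build GRCm38.p6, 250 bases before to 50 after a start) were matched for 4 of the 9 genes, with 8 promoters between them. Those of *Apoe*, the most abundant member in IMs, of *Ms4a7*, and of both starts of *Folr2*, which differed between the IM populations, are shown, 5′ to 3′ on the strand of the gene. Capitals mark matches, on either strand, to GGAAGT (an ETS core, as bound by PU.1), TGCTGA (a Maf half-site), TGANTCA (AP-1) or CACGTG (an E-box).
*Apoe*, chr7:19699139-19699438, minus strand: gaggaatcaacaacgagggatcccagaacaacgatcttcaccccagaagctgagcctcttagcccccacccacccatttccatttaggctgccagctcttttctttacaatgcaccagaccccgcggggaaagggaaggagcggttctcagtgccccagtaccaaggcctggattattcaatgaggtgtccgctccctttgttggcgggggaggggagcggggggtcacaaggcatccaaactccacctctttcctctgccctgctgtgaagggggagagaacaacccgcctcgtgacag
*Ms4a7*, chr19:11336097-11336396, minus strand: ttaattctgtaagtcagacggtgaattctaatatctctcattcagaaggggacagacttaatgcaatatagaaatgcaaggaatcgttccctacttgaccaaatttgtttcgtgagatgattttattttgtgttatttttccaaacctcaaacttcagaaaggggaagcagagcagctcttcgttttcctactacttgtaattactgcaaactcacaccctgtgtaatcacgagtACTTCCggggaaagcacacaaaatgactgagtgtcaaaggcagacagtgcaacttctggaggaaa
*Folr2*, first start, chr7:101857141-101857440, minus strand: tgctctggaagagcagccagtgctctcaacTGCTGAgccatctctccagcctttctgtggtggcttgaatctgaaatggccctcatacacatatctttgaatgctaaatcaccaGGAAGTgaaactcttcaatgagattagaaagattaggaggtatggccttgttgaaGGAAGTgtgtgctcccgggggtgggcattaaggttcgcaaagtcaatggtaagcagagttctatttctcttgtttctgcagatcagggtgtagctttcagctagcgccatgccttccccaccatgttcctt
*Folr2*, second start, chr7:101845282-101845581, minus strand: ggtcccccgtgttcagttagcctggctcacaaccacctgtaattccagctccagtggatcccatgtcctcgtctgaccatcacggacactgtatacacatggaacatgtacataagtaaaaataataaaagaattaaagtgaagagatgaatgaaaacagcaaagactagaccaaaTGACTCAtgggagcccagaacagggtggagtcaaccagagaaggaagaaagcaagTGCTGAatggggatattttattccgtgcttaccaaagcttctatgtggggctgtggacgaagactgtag
The first *Folr2* promoter held 2 matches to GGAAGT and 1 to TGCTGA, and the second held 1 to TGCTGA and 1 to TGANTCA. The *Ms4a7* promoter held 1 match to GGAAGT on its reverse strand, and the *Apoe* promoter held none of the 4 motifs. Of the promoters not shown, the second of *Ms4a7* held 1 match to TGANTCA and the other 2 of *Apoe* held none. The window matched for *Itga9*, chr9:118711442-118711741, held 1 match to TGCTGA and 1 to TGANTCA. It lies inside the gene and not at its outer start. Of the 32544 promoters of this length in the table, 23.7% held GGAAGT, 19.5% TGCTGA, 7.79% TGANTCA and 7.17% CACGTG, so the matches are common letters and are given as a description of the sequences.

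In mm10 coordinates of the deposited table, *Csf1r* lies at chr18:61105572-61131139, *Maf* at chr8:115703253-115706894, *Apoe* at chr7:19696244-19699188, *Tmem119* at chr5:113793729-113800352 and *Gdf3* at chr6:122605403-122610071. *Itga9* lies at chr9:118606709-118901003, *Ms4a7* at chr19:11321039-11336146, *Lyve1* at chr7:110850607-110862953 and *Folr2* at chr7:101839988-101857190. Reads were counted over exons, from 1 exon block in *Maf* to 29 in *Itga9*. In the GENCODE M21 annotation, the antisense genes *Gm10602* and *Gm15655* overlap 796 exon bases of *Folr2* and 401 of *Maf*. The library kit does not mark strand, so reads of these 2 genes and of their antisense partners cannot be told apart.

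The libraries held 26988617 to 42020021 counts. Levels are given as counts scaled to library size (CPM) normalized by TMM. *Itgax*, the gene of CD11c, stood at 302 to 437 CPM in CD11c+ IMs and 27.9 to 54.1 CPM in CD11c- IMs, and *Siglecf* at 616 to 686 CPM in AMs and no more than 65.1 CPM in IMs, as the gates require. *Il9r* went against its label: it stood at 2.59 to 6.82 CPM in the libraries labelled *Il9r*-/-, at 0.158 to 0.75 CPM in 5 WT libraries and at 6.47 CPM in WT CD11c- IM library 2. Counts per gene do not show whether those reads lie outside the deleted part, so the label is quoted throughout. The 3 WT libraries numbered 1 stood apart in sex, with *Xist* at 12.5 CPM or more and *Ddx3y* at 0.257 CPM or less, against *Xist* at 0.0478 CPM or less and *Ddx3y* at 58.7 CPM or more in the other 9. Sex and label are therefore partly confounded, and results that rest on those libraries are given with and without them.

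All 9 genes were higher in IMs than in AMs. They were chosen as IM genes with earlier results of these data known. The counts below therefore describe them and are no test of the choice. In every one of them, each of the 8 IM libraries stood above each of the 4 AM libraries, a separation that 13.2% of all genes showed in this direction. With edgeR's quasi-likelihood test and Benjamini-Hochberg adjustment, 9 of 9 passed an adjusted p under 0.05 in CD11c+ IMs against AMs in WT, where 6.77% of all genes were called higher, and 9 of 9 in the libraries labelled *Il9r*-/-, where 8.54% were. In CD11c- IMs against AMs, 9 of 9 were called higher in WT and 9 of 9 under the *Il9r*-/- label, beside 15.1% and 18.4% of all genes. Fewer of the 9 were called in CD11c+ IMs within a genotype when an AM group was left with 1 library. Fewer of all genes were called in those fits too. Calls of *Csf1r*, *Gdf3* or *Lyve1* were also lost in fits that left a CD11c+ IM group with 1 library. Without the 3 WT libraries numbered 1, each WT group was left with 1 library, and the WT calls in CD11c+ IMs did not hold. There the log2 fold changes ran from 1.69 for *Csf1r* to 9.62 for *Itga9*, against 1.46 and 7.37 with all libraries. With any 1 library left out, the log2 fold change of *Folr2* stayed at 5.37 to 5.71 in WT and at 4.35 to 6.40 under the *Il9r*-/- label. With all libraries it was 5.54 and 5.56. In WT, *Itga9* had a wider range, 6.62 to 9.90, and *Csf1r* ranged from 1.34 to 1.60. No called value changed sign. With all libraries, limma voom called 4 of 9 in each genotype. It called 8.16% of all genes in either direction in WT and 9.34% under the label, against 11.6% and 12.5% by edgeR. Over both genotypes, the median log2 fold change of the 9 was 5.34 in CD11c+ IMs and 6.45 in CD11c- IMs, beside 0.03 and 0.12 over all genes. Here 15.9% and 27.9% of all genes were called higher and 10.7% and 17.8% lower. The counts of listed genes that rose or fell against AMs, given below, are to be read beside these shares. Scaled by library size alone, the median of all genes moved to 0.11 and 0.42, with 9 of 9 still called. The 2 comparisons share the AM libraries, and in such bulk samples fewer cells of a type and less RNA per cell cannot be told apart.

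**Figure D1:**
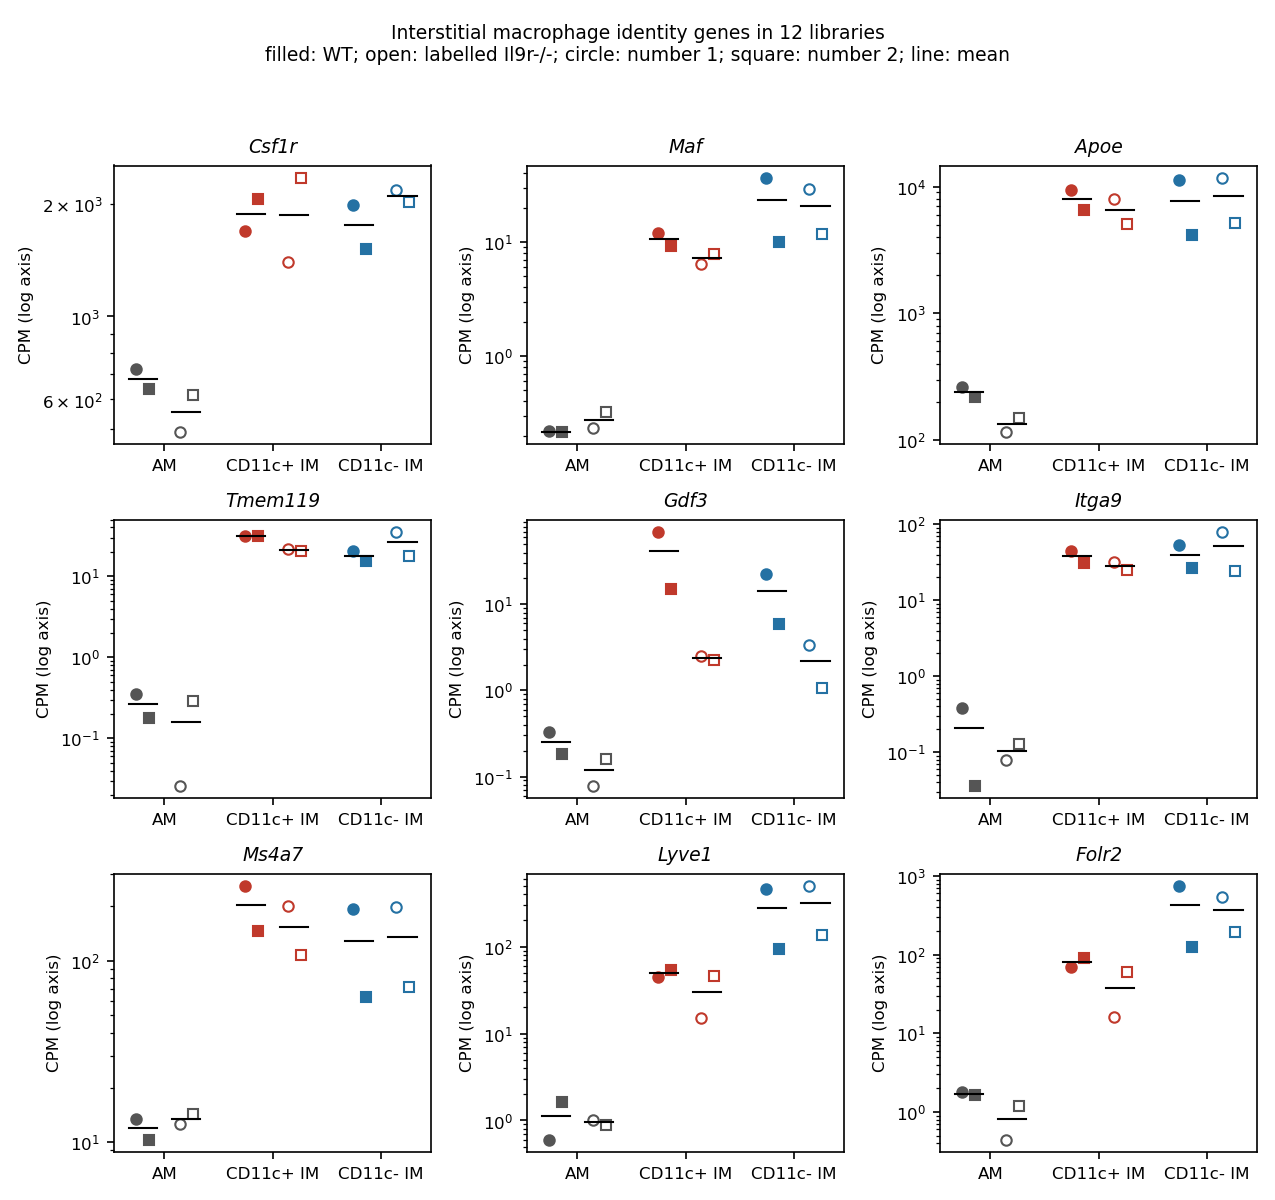
CPM (log axis) of the 9 genes in AMs, CD11c+ IMs and CD11c- IMs, 1 point per library; filled points are WT and open points are labelled Il9r-/-, circles are libraries numbered 1 and squares number 2, and lines are group means (n = 2). In every panel the IM points lie above the AM points, and *Lyve1* and *Folr2* also part CD11c- from CD11c+ IMs, at 92.7 CPM or more against 53.7 CPM or less for *Lyve1*.

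On the length-corrected scale of FPKM, *Apoe* and *Csf1r* had the highest means in every IM group. In WT CD11c- IM library 1, however, *Folr2* at 558 FPKM stood above *Csf1r* at 513. In WT CD11c+ IMs, *Apoe* stood at 5032 ± 1273 FPKM (SD, n = 2), *Csf1r* at 485 ± 67.4, *Ms4a7* at 118 ± 46.1 and *Folr2* at 60.2 ± 11.0. Next came *Gdf3* at 19.97 ± 17.99, *Lyve1* at 18.98 ± 2.31 and *Tmem119* at 15.2 ± 0.0259 FPKM, of which the level of *Gdf3* overlapped its neighbours within its spread. *Itga9* at 5.34 ± 1.32 and *Maf* at 2.93 ± 0.547 FPKM were lowest. In WT CD11c- IMs, *Folr2* at 326 ± 328 and *Lyve1* at 107 ± 101 FPKM stood above *Ms4a7* at 75.1 ± 54.2, an order that lies within the spread of the 2 libraries. In WT AMs, *Csf1r* at 176 ± 14.99 and *Apoe* at 151 ± 19.3 FPKM were the most abundant, *Ms4a7* followed at 6.97 ± 1.31 and the other 6 stood at 1.33 or less.

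*Csf1r*, the receptor tyrosine kinase that carries survival signals of macrophages, was the member with the smallest difference. It stood at 723 and 641 CPM in the WT AM libraries and at 492 and 616 in those labelled *Il9r*-/-. In CD11c+ IMs it stood at 1695 and 2065 CPM in WT and at 1397 and 2341 under the *Il9r*-/- label, and in CD11c- IMs at 1989 and 1515 and at 2182 and 2019. AMs thus kept a high level of the gene, and the lowest IM library was 1.93 times the highest AM library. Over both genotypes it was higher than in AMs by 1.61 log2 units in CD11c+ IMs (SE 0.20, adjusted p = 0.000556) and by 1.64 in CD11c- IMs (SE 0.20, adjusted p = 0.000265). The IM populations overlapped, with a log2 fold change of -0.03 (SE 0.20) between them.

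Of the 7 measured genes listed as ligands of this receptor or as other colony-stimulating factor genes, 2 rose and 2 fell in CD11c+ IMs over both genotypes, and 2 rose and 3 fell in CD11c- IMs. *Csf1*, a ligand of the receptor, rose by 4.29 and 4.18 on the log2 scale, and *Csf3r*, the G-CSF receptor, by 2.04 and 3.07. *Csf2rb*, the signalling chain of the GM-CSF receptor, fell by 0.81 and 2.05 on the log2 scale, its relative *Csf2rb2* fell by 0.67 and 2.30, and *Csf2ra* fell by 1.30 in CD11c- IMs. In CD11c- IM libraries 1 and 2, *Csf3r* stood at 141 and 932 CPM in WT and at 547 and 1445 under the *Il9r*-/- label. Neutrophil genes summed there to 807 and 3995 and to 3881 and 7841 CPM. Their part in the rise of *Csf3r* was not tested.

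*Maf*, a transcription factor that restrains self-renewal of mature macrophages, was nearly absent from AMs. The AM libraries held 0.218 and 0.217 CPM in WT and 0.235 and 0.320 under the *Il9r*-/- label, which are 6 to 10 reads each. CD11c+ IMs held 12.0 and 9.21 CPM in WT and 6.42 and 7.92 under the label, and CD11c- IMs 36.2 and 10.0 and 29.3 and 11.8. Both CD11c- IM libraries numbered 1 stood above the rest. CD11c+ IMs exceeded AMs by 5.14 log2 units (SE 0.52, adjusted p = 0.000209) and CD11c- IMs did by 6.45 (SE 0.55, adjusted p = 4.08e-05).

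Of the 9 measured Maf factors and partners, 2 rose and 1 fell in CD11c+ IMs, and 2 rose and 2 fell in CD11c- IMs. *Bach2*, a repressor that pairs with small Maf proteins, rose by 3.65 and 3.87 on the log2 scale, and the small Maf gene *Maff* fell by 1.08 and 1.81. Among 19 measured macrophage transcription factors, 5 rose and 5 fell in CD11c+ IMs, and 5 rose and 8 fell in CD11c- IMs. *Pparg*, the regulator of the AM fate, fell by 1.68 and 3.36, and *Klf2* and *Runx3* rose by 1.91 and 4.70 in CD11c+ IMs and by 2.68 and 4.13 in CD11c- IMs.

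*Apoe*, which carries cholesterol between cells, was the most abundant member in IMs. AMs held 260.3 and 217 CPM in WT and 116 and 149 under the *Il9r*-/- label. CD11c+ IMs held 9409 and 6554 CPM in WT and 7929 and 5103 under the label, and CD11c- IMs 11214 and 4171 and 11635 and 5127. In CD11c- IMs the libraries numbered 1 held more than those numbered 2, and the IM populations overlapped. The fitted excess over AMs was 5.34 log2 units for CD11c+ IMs (SE 0.44, adjusted p = 7.36e-05) and 5.50 for CD11c- IMs (SE 0.44, adjusted p = 3.38e-05).

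Other genes of lipoproteins and cholesterol efflux did not share one direction. Of 17 measured, 4 rose and 5 fell in CD11c+ IMs, and 5 rose and 8 fell in CD11c- IMs. *Lpl*, lipoprotein lipase, fell by 1.73 and 3.63 on the log2 scale and *Abcg1*, a cholesterol exporter, by 2.19 and 3.94, while *Apoc2*, a cofactor of lipoprotein lipase, rose by 4.06 and 3.09.

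*Tmem119*, whose protein marks microglia in the brain, was close to absent from AMs. The AM libraries held 0.355 and 0.181 CPM in WT and 0.0261 and 0.288 under the *Il9r*-/- label, or 1 to 13 reads. CD11c+ IMs held 31.5 and 31.6 CPM in WT and 21.8 and 20.6 under the label, and CD11c- IMs 20.7 and 15.3 and 35.0 and 17.97. CD11c+ IM libraries of one genotype nearly coincided, and the lowest IM library was 43.1 times the highest AM library. Over both genotypes it was higher than in AMs by 6.98 log2 units in CD11c+ IMs (SE 0.50, adjusted p = 4.43e-05) and by 6.73 in CD11c- IMs (SE 0.49, adjusted p = 2.32e-05). Of 11 measured genes of a microglia list, 8 rose and 1 fell in each IM population, among them *Fcrls*, which rose by 6.48 and 6.91.

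*Gdf3*, a secreted factor of the TGF-β family, had the widest range of the 9 genes within IMs as a ratio of the highest to the lowest library. AMs held 0.327 and 0.181 CPM in WT and 0.0782 and 0.160 under the *Il9r*-/- label, or 3 to 12 reads. CD11c+ IMs held 68.9 and 15.2 CPM in WT and 2.52 and 2.23 under the label, and CD11c- IMs 22.4 and 5.85 and 3.39 and 1.05. All 4 WT IM libraries stood above all 4 labelled *Il9r*-/-, as treated with the genotype comparisons. CD11c+ IMs exceeded AMs by 5.82 log2 units (SE 0.77, adjusted p = 0.000752) and CD11c- IMs did by 4.99 (SE 0.75, adjusted p = 0.000764). Of 18 measured genes listed with it, mostly TGF-β family ligands, receptors and SMADs, 4 rose and 3 fell in CD11c+ IMs, and 6 rose and 7 fell in CD11c- IMs, *Tgfb3* rising by 2.62 and 3.53 and *Tgfbr2* falling by 1.06 and 1.03.

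*Itga9*, the α9 chain of an integrin that binds matrix proteins together with the β1 chain, gave the largest difference from AMs of the 9 genes in CD11c+ IMs. AMs held 0.382 and 0.0362 CPM in WT and 0.0782 and 0.128 under the *Il9r*-/- label, or 1 to 14 reads. CD11c+ IMs held 44.4 and 31.2 CPM in WT and 32.0 and 24.9 under the label, and CD11c- IMs 52.9 and 26.8 and 78.8 and 24.01. The IM populations overlapped, and the lowest IM library was 62.9 times the highest AM library. The fitted excess over AMs was 7.73 log2 units for CD11c+ IMs (SE 0.64, adjusted p = 7.9e-05) and 8.20 for CD11c- IMs (SE 0.65, adjusted p = 3.27e-05).

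*Itgb1*, its partner chain, was not called in either comparison, at a log2 fold change of 0.22 and -0.18, and was abundant in all populations. Of 24 measured integrin chains, 13 rose and 2 fell in CD11c+ IMs, and 14 rose and 5 fell in CD11c- IMs. *Itgam*, the gene of CD11b, rose by 4.61 and 4.71, and *Itga4* by 1.78 and 1.33. Of 14 measured genes for ligands of the α9β1 integrin, 8 rose and 2 fell in CD11c+ IMs, and 9 rose and 1 fell in CD11c- IMs. *Vegfa* rose by 4.25 and 3.66 and *Vcam1*, an adhesion molecule, by 5.99 and 5.66, while *Emilin1*, a matrix glycoprotein, fell by 1.19 and 1.39.

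*Ms4a7* encodes a membrane protein of the family of CD20. AMs held 13.5 and 10.3 CPM in WT and 12.5 and 14.3 under the *Il9r*-/- label. CD11c+ IMs held 258 and 146 CPM in WT and 200 and 108 under the label, and CD11c- IMs 195 and 63.2 and 199 and 71.5. In each IM group the library numbered 1 held more, and the populations overlapped. Over both genotypes it was higher than in AMs by 3.80 log2 units in CD11c+ IMs (SE 0.47, adjusted p = 0.000538) and by 3.39 in CD11c- IMs (SE 0.46, adjusted p = 0.000468). Of 11 measured relatives, 7 rose and 1 fell in CD11c+ IMs, and 8 rose and 1 fell in CD11c- IMs. *Tmem176b* rose by 5.29 and 5.93 and *Ms4a6c* by 2.44 and 2.53, and *Ms4a8a* fell by 2.20 and 2.75. The relatives include the B cell gene *Ms4a1*. In CD11c- IM libraries 1 and 2 it stood at 42.1 and 270 CPM in WT and at 30.1 and 191 under the label. B cell genes, *Ms4a1* among them, summed there to 228 and 1707 and to 203 and 993 CPM. The part of other cell types in these counts was not tested.

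**Figure D2:**
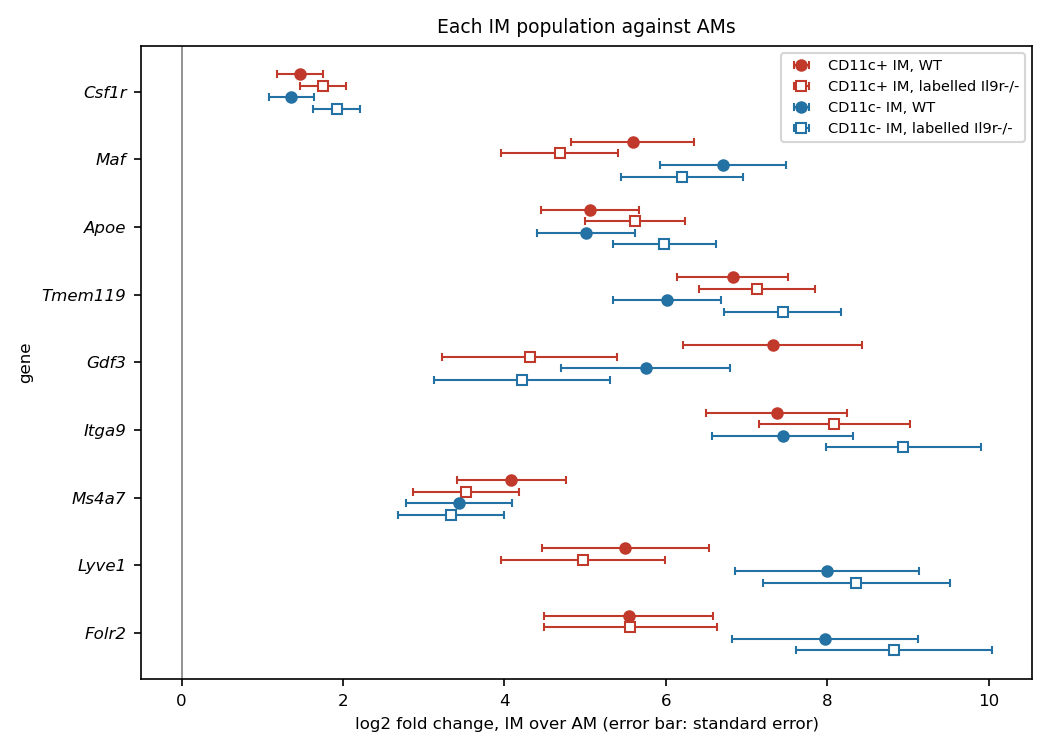
Log2 fold change of each IM population over AMs for the 9 genes (points, edgeR), with standard errors, within WT (filled) and within libraries labelled Il9r-/- (open). All points lie above 0, from 1.36 for *Csf1r* to 8.94 for *Itga9*.

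*Lyve1*, a receptor for hyaluronan, and *Folr2*, the folate receptor β, differed between the IM populations as well as from AMs. *Lyve1* stood at 0.600 and 1.63 CPM in WT AMs and at 1.02 and 0.897 in those labelled *Il9r*-/-. CD11c+ IMs held 45.2 and 53.7 CPM in WT and 14.9 and 45.7 under the label, and CD11c- IMs 466 and 92.7 and 496 and 136. The 3 populations did not overlap, but in CD11c- IMs the libraries numbered 1 stood far above those numbered 2. *Folr2* stood at 1.80 and 1.63 CPM in WT AMs and at 0.443 and 1.19 in those labelled *Il9r*-/-. CD11c+ IMs held 69.7 and 90.4 CPM in WT and 16.3 and 59.4 under the label, and CD11c- IMs 742 and 125 and 537 and 192. Its libraries fell in the same 3 tiers.

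*Lyve1* exceeded its AM level by 5.24 log2 units in CD11c+ IMs (SE 0.73, adjusted p = 0.000955) and by 8.18 in CD11c- IMs (SE 0.81, adjusted p = 8.39e-05). *Folr2* did so by 5.55 (SE 0.75, adjusted p = 0.000841) and 8.40 (SE 0.84, adjusted p = 8.41e-05). *Folr1*, the paralog next to *Folr2*, was at a mean of only 0.163 CPM over the libraries, and *Slc19a1*, the reduced folate carrier, was called in neither comparison. Of 13 measured folate genes, 3 rose and 0 fell in CD11c+ IMs, and 4 rose and 1 fell in CD11c- IMs, with *Mthfd2*, a mitochondrial enzyme of folate metabolism, at 1.17 and 0.71. Of 12 measured hyaluronan genes, 4 rose and 2 fell in CD11c+ IMs, and 8 rose and 1 fell in CD11c- IMs. *Stab1*, a scavenger receptor, rose by 6.04 and 6.93, and *Cd44*, the other main hyaluronan receptor, fell by 0.99 and 1.45.

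Between the IM populations, 0 of 9 genes were called within WT and 0 of 9 within the libraries labelled *Il9r*-/- by edgeR, beside 0.758% and 2.18% of all genes in either direction. At an unadjusted p under 0.05 stood 2379 and 2625 genes, among them *Lyve1* and *Folr2* in WT and *Lyve1*, *Folr2* and *Maf* under the label, all lower in CD11c+ IMs. DESeq2 called *Lyve1* and *Folr2* within each genotype, with adjusted p = 0.0261 and 0.0350 in WT and 0.000642 and 0.00132 under the label, where it called 8.5% of all genes in WT and 10.1% under the label. Over both genotypes, the log2 ratio of CD11c+ to CD11c- IMs was -2.94 for *Lyve1* (SE 0.62, edgeR adjusted p = 0.0189) and -2.85 for *Folr2* (SE 0.63, adjusted p = 0.0221), so that 2 of 9 were called lower, beside 7.71% of all genes called lower and 4.98% called higher (12.7% in all). All 4 CD11c+ libraries lay below all 4 CD11c- libraries for both genes, as for 12.1% of all genes. *Maf* at -1.32 (SE 0.42, adjusted p = 0.0707) fell short of the threshold, and the other 6 ranged from -0.46 to 0.83. Across alternatives the adjusted p ranged from 4.46e-06 to 0.188 for *Lyve1* and from 1.29e-05 to 0.240 for *Folr2*. Neither was called without WT CD11c+ IM library 1 or 2, without CD11c+ or CD11c- IM library 1 labelled *Il9r*-/-, or without the 3 WT libraries numbered 1, where they stood at -2.09 and -1.87, and only *Lyve1* was called without WT CD11c- IM library 1. With any 1 library left out, the log2 fold change stayed between -3.45 and -2.15 for *Lyve1* and between -3.46 and -1.96 for *Folr2*.

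**Figure D3:**
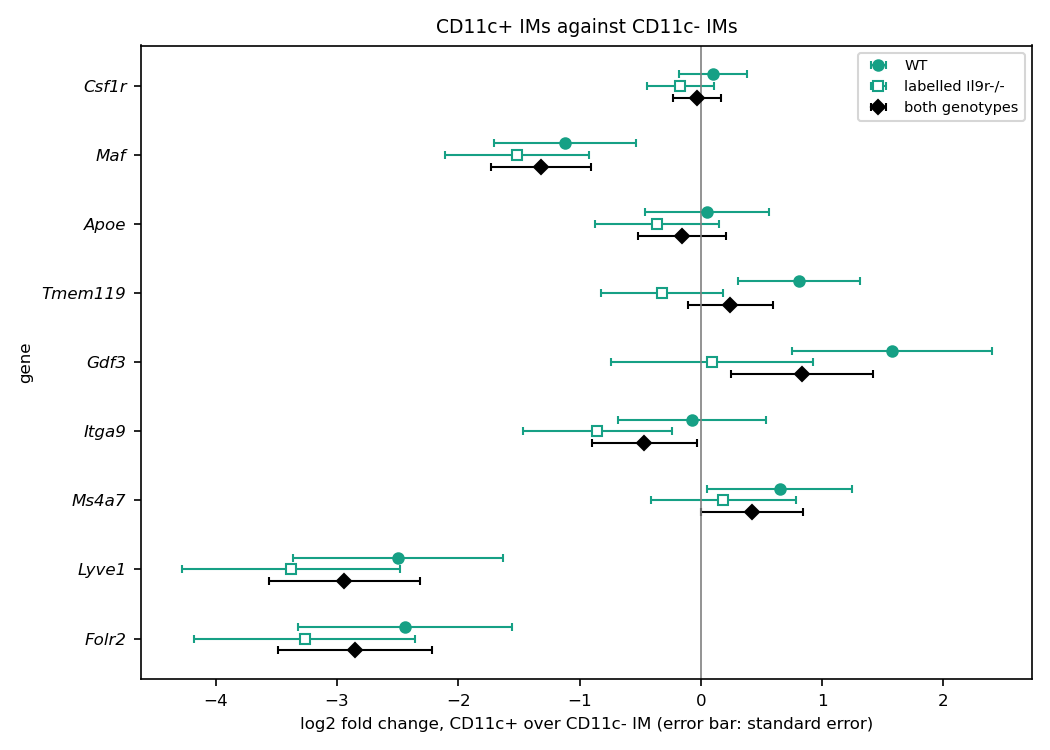
Log2 fold change of CD11c+ IMs over CD11c- IMs for the 9 genes (points, edgeR), with standard errors, within WT, within libraries labelled Il9r-/- and over both. *Lyve1* and *Folr2* lie at -2.94 and -2.85 over both genotypes, and *Csf1r* at -0.03.

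Other cell types moved with this difference. Over both genotypes, 11 of 12 melanocyte genes, 12 of 17 fibroblast and smooth muscle genes and 12 of 19 lung epithelium genes were called lower in CD11c+ IMs, beside 7.71% of all genes. The summed CPM of the melanocyte list was 12920 and 5118 in WT CD11c- IMs and 9971 and 4471 under the *Il9r*-/- label, against 850.9 to 4543 in CD11c+ IMs, with 0 of its genes at 0 in CD11c- IMs. Much of the CD11c+ sum was *Gpnmb*, which macrophages also express. Without it, a choice made after seeing the data, the other 11 genes summed to 3557 to 9490 CPM in CD11c- IMs and 71.5 to 858 in CD11c+ IMs. Like *Lyve1*, the melanocyte sum was higher in CD11c- IM library 1 than in library 2 under both labels, while the fibroblast sum was lower in library 1 under both and the epithelium sum was lower in library 1 in WT and higher under the *Il9r*-/- label. The summed fibroblast list reached 1778 to 2760 CPM in CD11c- IMs and 538 to 712 in CD11c+ IMs, and epithelium 952 to 7337 and 232 to 439. Their part in the difference was not tested. Lymphatic endothelium also carries *Lyve1*. The 8 measured genes of its list summed to 45.9 to 111 CPM in CD11c- IMs, 69.0 to 124 in CD11c+ IMs and 54.9 to 118 in AMs. Of them 1 was called lower in CD11c+ IMs, the defining transcription factor *Prox1*, at 0.0790 to 0.264 CPM against 0.926 to 1.92 in CD11c- IMs (log2 fold change -2.82, adjusted p = 0.0192). *Prox1* stood at 1.01 to 4.00 CPM in AMs, where *Lyve1* was 1.63 CPM or less. Most of the sum was *Nrp2* and *Pdpn*. The other 6 genes, taken apart after seeing the data, summed to 7.48 to 22.3 CPM in CD11c- IMs, 3.84 to 9.17 in CD11c+ IMs and 2.68 to 4.74 in AMs. Within CD11c- IMs of WT they were at 7.48 CPM in library 1 and 22.3 in library 2, the reverse of *Lyve1*. Under the *Il9r*-/- label they were at 19.3 CPM in library 1 and 16.97 in library 2, the same direction as *Lyve1*. The part of lymphatic cells was not tested.

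Within CD11c+ IMs, library 1 labelled *Il9r*-/- was the lowest for *Lyve1* and *Folr2*, and it held the highest summed level of the 20 AM genes, 24580 CPM against 6528 to 15920 in the other 3. Dendritic cell genes summed to 757 to 3429 CPM in CD11c+ IMs and 234 to 937 in CD11c- IMs. Their part was not tested either.

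A list of 27 other measured IM genes was also chosen with earlier results of these data known. Of these, 25 rose and 1 fell in CD11c+ IMs against AMs over both genotypes, and 23 rose and 0 fell in CD11c- IMs. They included the complement genes *C1qb* and *C1qc*, at 7.40 and 7.40 in CD11c+ IMs and 7.52 and 7.67 in CD11c- IMs, and *F13a1*, a coagulation factor chain, at 4.89 and 6.93. Between the IM populations, 5 of the 27 were called lower in CD11c+ IMs, beside 7.71% of all genes. These were *F13a1* at -2.04, *Cbr2* at -3.12, *Cd209f* at -2.99, *Gas6*, a ligand of MerTK, at -2.26 and *Cd163*, the hemoglobin scavenger receptor, at -2.79.

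The members also differed in which libraries they followed among the IMs. Over the 8 IM libraries, log2 CPM of *Lyve1* and *Folr2* correlated at r = 0.991, and each with *Maf* at 0.933 and 0.928. *Apoe* went with *Itga9* (r = 0.909) and *Ms4a7* (r = 0.896). *Csf1r* correlated with no other member above 0.521 and *Gdf3* with none above 0.574. These values describe 8 libraries that share 2 populations, so part of each r is the population difference. For *Apoe*, *Itga9* and *Ms4a7*, every IM library numbered 1 stood above every one numbered 2, so their r also carries the library number.

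**Figure D4:**
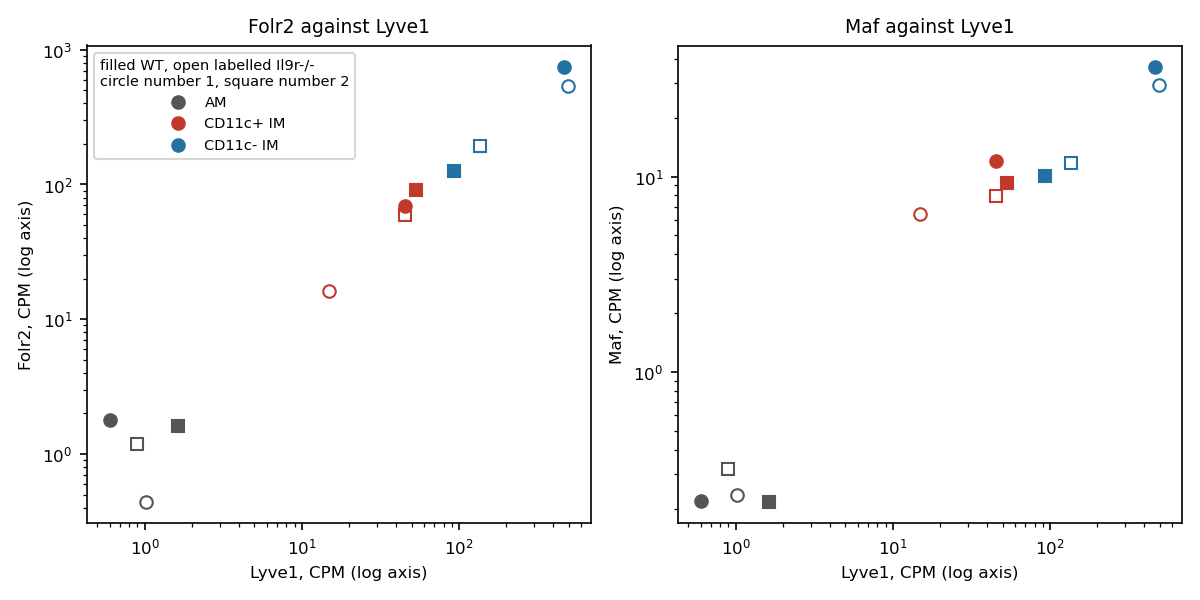
CPM of *Folr2* (left) and *Maf* (right) against *Lyve1* in 12 libraries (both axes log), coloured by population, filled for WT and open for libraries labelled Il9r-/-. The *Folr2* points line up over the IM libraries (r = 0.991), from 14.9 CPM of *Lyve1* in CD11c+ IM library 1 labelled Il9r-/- to 496 in CD11c- IM library 1 of that label.

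Over all 12 libraries, the gene most like *Apoe* in log2 CPM was *C1qa* (Pearson r = 0.9996), followed by *C1qc* and *C1qb*. *Pf4*, *Ninj1* and *Clec10a* came closest to *Maf* (0.996 for *Pf4*), and *Aif1*, *Ptafr* and *Sdc1* to *Tmem119* (0.994 for *Aif1*). *Lyve1* was followed most closely by *Ednrb*, *Cbr2* and *F13a1* (0.995 for *Ednrb*) and *Folr2* by *Fcna*, *Cd209f* and *Cd163* (0.994 for *Fcna*). *Itga9* lay nearest to *Ctla2b*, *Ccl12* and *C1qc* (0.994 for *Ctla2b*), *Ms4a7* to *Ccl9*, *Kcnk13* and *Gatm* (0.990 for *Ccl9*), and *Csf1r* to *Socs3*, *Ckb* and *Marcks* (0.986 for *Socs3*). The closest match to *Gdf3* was *Nup50* at 0.958, then *St6galnac4* and *Pgam1*. The AM and IM libraries form separate clusters here, so much of each r is that one step.

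The genotype comparison asks whether loss of the IL-9 receptor goes with another level of these genes in the same population. In AMs, CD11c+ IMs and CD11c- IMs, 0 of 9 genes were called between libraries labelled *Il9r*-/- and WT by edgeR, where 0.0205%, 0.00683% and 0% of all genes were. At an unadjusted p under 0.05 these comparisons held 597, 569 and 249 genes, and of the 9 members only *Gdf3*, in both IM populations. DESeq2 called 0 of 9 in AMs and in CD11c- IMs and 1 of 9, *Gdf3*, in CD11c+ IMs, beside 0.444%, 0.0614% and 0.649% of all genes by that tool. Over all 3 populations edgeR called 0 of 9, beside 0.0273% of all genes, at adjusted p of 0.297 or more, and the test of whether the label effect differed between populations called 0 of 9 in each of 3 pairs, where 0% of all genes passed.

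*Gdf3* was the member with the largest difference. In CD11c+ IMs the log2 ratio of the libraries labelled *Il9r*-/- to WT was -4.15 (SE 0.92, edgeR adjusted p = 0.483), and for CD11c- IMs it was -2.66 (SE 0.86, adjusted p = 1). It did not overlap between the labels in either IM population, which 12.5% and 7.63% of all genes showed in this direction. In AMs, at 12 reads or fewer, the value was -1.13 (SE 1.22). DESeq2 called it in CD11c+ IMs (adjusted p = 0.000606) and over all 3 populations (adjusted p = 0.000258, beside 1.18% of all genes). Without the 3 WT libraries numbered 1, which differ in sex from the rest, *Gdf3* stood at -2.68 for CD11c+ and -1.39 for CD11c- IMs (edgeR adjusted p = 1 in both), and the lone WT libraries held 15.2 and 5.85 CPM. *Il9r* itself ran against the label, so the direction is that of the labels only.

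**Figure D5:**
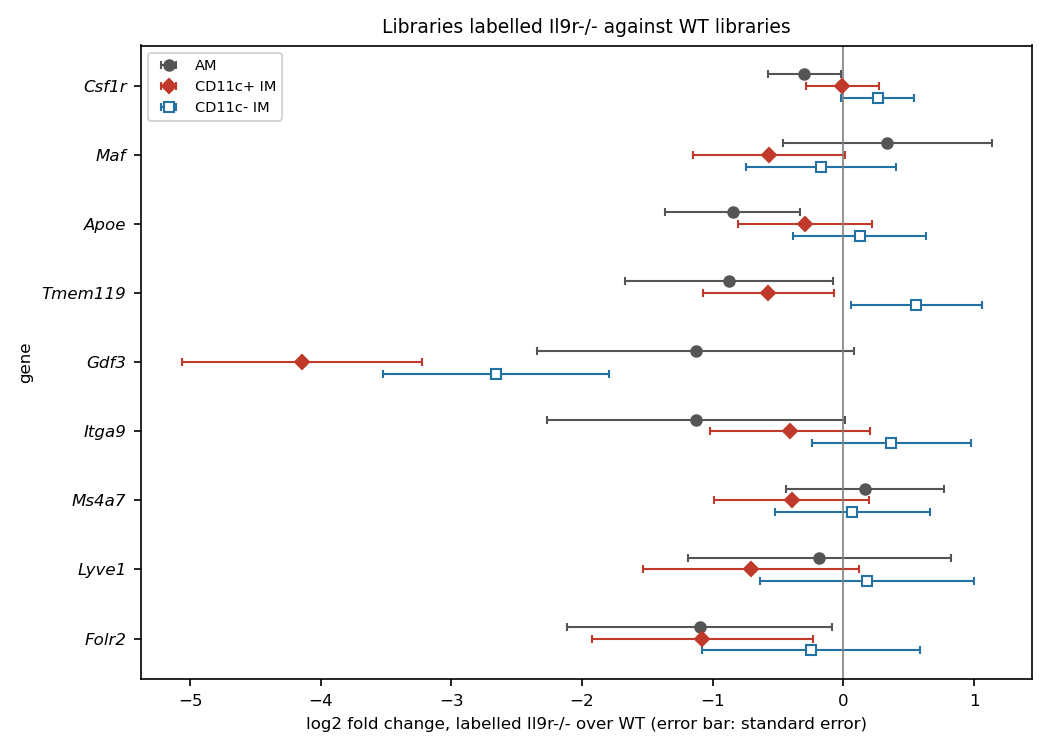
Log2 fold change of libraries labelled Il9r-/- over WT libraries for the 9 genes (points, edgeR), with standard errors, in AMs, CD11c+ IMs and CD11c- IMs. *Gdf3* lies farthest from 0, at -4.15 and -2.66 in the IM populations, and no gene was called.

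The other 8 members lay closer to 0, from -1.13 for *Itga9* in AMs to 0.56 for *Tmem119* in CD11c- IMs. *Apoe* in AMs was at 116 and 149 CPM against 260.3 and 217, or -0.85 in log2 (SE 0.52, adjusted p = 1). It was called when only the 4 AM libraries were fitted (adjusted p = 0.0272), a fit that called 0.948% of 11919 genes. *Csf1r* was at -0.01 (SE 0.28) in CD11c+ IMs and 0.26 (SE 0.28) in CD11c- IMs. *Lyve1* and *Folr2* were at -0.70 (SE 0.83) and -1.08 (SE 0.85) in CD11c+ IMs and at 0.18 (SE 0.82) and -0.25 (SE 0.84) in CD11c- IMs, all with adjusted p = 1. In CD11c+ IMs the 2 labels overlapped for *Lyve1*. Both *Folr2* levels under the *Il9r*-/- label, 16.3 and 59.4 CPM, lay below both WT levels, 69.7 and 90.4. The same held there for *Maf*, *Tmem119* and *Gdf3*, and for 12.5% of all genes.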

How the data were processed

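The authors deposited 1 table with counts of reads per gene, log2 FPKM values and their own comparisons (fold changes, p-values and FDR), which were not used. Per the labels and methods, they sequenced SMART-Seq v4 and Nextera XT libraries from 1 ng of RNA, aligned to mm10 with STAR 2.5, counted refGene genes with featureCounts of Subread 1.5.1 under a strand setting, and removed genes of low CPM. The deposited comparisons name the 2 IM populations the opposite way to the count columns, and the column names were kept. Each deposited Length value is the exon length.

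Counts were fitted with edgeR 4.0.16 (robust quasi-likelihood test, TMM) in 1 model of 6 groups of 2 libraries with 6 residual degrees of freedom, over 14648 genes at a CPM of 0.5 or more in 2 libraries, and Benjamini-Hochberg adjustment. limma 3.58.1 and DESeq2 1.42.0 in R 4.3.3 were alternatives, as were other scalings and filters, a library block, and leaving out libraries. FPKM means are 2 raised to the deposited log2 FPKM. The fit was tested on simulated data. Members, lists and the naming rule (members, their 3 most correlated genes at a mean CPM of 5 or more, and up to 4 called genes per list and direction, the most abundant first) were chosen with earlier results of these data known. *Itgb1*, *Slc19a1*, *Ms4a1*, *Gpnmb*, *Nrp2*, *Pdpn* and, in the IM list, *Cd163* were named after their values were seen. Some genes that the rule names are not reported here.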

Additional observations from a re-analysis of the deposited data

How the results depend on the processing

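Over 22 alternatives, 3037 of 3119 member values had the same call, 71 lost and 11 gained one, 0 called values and 117 uncalled values changed sign. Fewer of the 9 genes were called in CD11c+ IMs against AMs by limma voom, 4 in WT and 4 in the libraries labelled *Il9r*-/-. It called 8.16% and 9.34% of all genes there. Without the 3 WT libraries numbered 1, 1 library per group was left in WT. The WT calls in CD11c+ IMs against AMs then did not hold, and those in CD11c- IMs held only in part. Fewer of all genes were called there too. In CD11c- IMs of WT, *Lyve1* and *Folr2* then stood 5.83 and 6.26 log2 units above AMs, against 8.00 and 7.98 with all libraries. Leaving out a library of the AMs compared also lowered the calls within a genotype, among the members and among all genes. In some fits, leaving out a library of the IMs compared lost calls among the members too. Over both genotypes, leaving out 1 library lost no call against AMs. Between the IM populations over both genotypes, DESeq2 and library size alone called 3 (with *Maf*, adjusted p = 0.0199 and 0.0416; library size alone moved the median of all genes from -0.05 to -0.26), the groups compared alone 1, and the fit without the 3 WT libraries 0. Leaving out 1 library there gave 0 to 3: 0 without WT CD11c+ IM 1 or 2, *Il9r*-/- CD11c+ IM 1 or *Il9r*-/- CD11c- IM 1. DESeq2 called 2 within WT and 2 within the label, and 1, *Gdf3*, between labels in CD11c+ IMs and over all 3 populations; the AM groups alone called 1, *Apoe*. The library numbers are not stated to mark mice. Same-numbered libraries deviated together at r = 0.148 to 0.65 within a genotype and at r = 0.00942 to 0.62 across genotypes. A replicate block kept 9 of 9 against AMs and 2 of 9 between IM populations and called 0 between labels. With 2 libraries per group, the spread is shared over all groups.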

Other observations

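In CD11c- IMs, library 1 held more than library 2 for all 9 members in WT and for all 9 under the *Il9r*-/- label; in both at once this held for 38.8% of all genes. The difference was largest for *Folr2* in WT, at 2.57 on the log2 scale, and for *Lyve1* under the label, at 1.86, where the median size over all genes was 0.539 and 0.469. *Csf1r* moved least, at 0.39 and 0.11. In CD11c+ IMs 4 of 9 members had the higher value in library 1 of both labels, beside 31.5% of all genes, and *Lyve1* and *Folr2* went the other way, at -0.25 and -0.37 in WT and -1.61 and -1.86 under the label. B cell genes summed to 228 and 1707 CPM in CD11c- IM libraries 1 and 2 of WT and to 203 and 993 under the label, and neutrophil genes to 807 and 3995 and to 3881 and 7841. Their part in the difference between libraries was not tested.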
